A study of Mus musculus with 3 samples.

Results

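Open chromatin at 10 genes of the Notch pathway was compared across 3 mouse ATAC-seq libraries, 1 per group. The genes were Notch1, Notch2, Notch3, Jag1, Dll1, Dll3, Rbpj, Lfng, Numb and Maml2, out of 21900 protein-coding genes in the annotation used. A site was any set of peaks of the 3 deposited tables that overlapped by at least 1 bp, and it was given to a gene when it touched the gene body or the 10000 bp on either side in mm10. By this rule the 10 genes held 188 of all 182865 sites, and 36 of the 188, or 19.1%, were called in all 3 libraries, against 17.9% of all sites. ATAC-seq marks accessible DNA by letting a transposase insert sequencing adapters into it.

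The cells were oligodendrocyte progenitors, the precursors of the myelin-forming cells of the brain. They were immunopanned with anti-GalC and then anti-O4 from the cortices of C57BL/6 pups of postnatal day 4 to 7, and 50000 cells were taken per library. The first group was control cells labelled wild type at the progenitor stage, which was read from a title whose middle part is DO. The second was control cells, also labelled wild type, kept for 1 day with 60 nM T3 (triiodothyronine), a form of thyroid hormone used to set off differentiation, and with PDGF-AA, bFGF and NT3 taken away. The third was Seh1cKO cells, with a conditional knockout of the nuclear pore protein Seh1, after the same 1 day of T3. The Cre driver, the deleted exons and the number of pooled pups are not given in the sources used here, and no label names an animal, litter or batch. With 1 library per group there was no replicate and no test between conditions, and all intervals are exact 95% intervals that cover counting error only.

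Notch signalling runs between touching cells. A ligand of the Jagged or Delta family on 1 cell binds a Notch receptor on its neighbour, the receptor is cleaved, and its intracellular domain enters the nucleus. There it joins the DNA-binding protein RBPJ and a Mastermind coactivator and turns on target genes such as Hes1 and Hes5. In the oligodendrocyte lineage the pathway is known for holding progenitors back from differentiation. The receptors here are Notch1, Notch2 and Notch3, the ligands Jag1, Dll1 and the divergent Dll3, the nuclear partners Rbpj and Maml2, and the modifiers Lfng, a glycosyltransferase that tunes which ligand a receptor answers to, and Numb, an inhibitor of Notch.

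The level of a site was the fragment pileup at the summit of its highest peak per 1000000 fragments of the library, as counted in the file header, written FPM below. The headers gave 23403600 fragments for progenitors, 18260883 for control day 1 and 10845533 for Seh1cKO. The lowest level called was 0.385, 0.438 and 0.553 FPM in that order, so a site without a call can be open below it. Peaks were called against a local background, so an open site above that level can also lack a call. Sites called in all 3 libraries had a median level of 1.41, 1.97 and 1.57 FPM. The progenitor marker list (Pdgfra, Cspg4, Gpr17, Ptprz1, Olig1, Olig2, Sox10) had a site within 1000 bp of a gene end at 6 of 7 genes in every library, with Cspg4 the one without. The oligodendrocyte list had 4, 5 and 3 of 6, with Mag without a site in all 3, and the astrocyte list 3 of 5 in each. The microglial list had 2, 2 and 1 of 6. P2ry12 had such a site in every library and Tmem119 in both control libraries, while Cx3cr1, Csf1r, Aif1 and Itgam had none in any library. The neuronal list had 5, 5 and 4 of 6, the endothelial list 3, 3 and 2 of 6 and the mural list 3, 4 and 4 of 7. Such sites show open DNA and not expression, and the part of other cell types in the results was not tested.

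The sequences of 4 start regions are shown because the results turn on them: Rbpj and Notch2, whose promoter sites had a higher level at day 1, Notch3, the member without a promoter site in any library, and Lfng, which like Rbpj held 2 RBPJ core motifs in the window searched. Each is the 250 bases before an annotated start, 5′ to 3′ on the strand of the gene, from RefSeq on GRCm38.p6, whose main chromosomes have mm10 coordinates. All 10 genes were found in the promoter table. Capitals mark the RBPJ core TGGGAA and the E-box CAGCTG, a motif of basic helix-loop-helix factors, searched on both strands, so TTCCCA is the core read on the other strand.
Rbpj, chr5:53590096-53590345, plus strand: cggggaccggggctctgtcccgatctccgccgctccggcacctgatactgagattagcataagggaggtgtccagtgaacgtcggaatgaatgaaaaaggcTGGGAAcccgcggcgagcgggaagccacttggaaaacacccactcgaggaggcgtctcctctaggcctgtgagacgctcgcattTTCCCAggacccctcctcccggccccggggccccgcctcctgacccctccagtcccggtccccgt
Lfng, chr5:140607091-140607340, plus strand: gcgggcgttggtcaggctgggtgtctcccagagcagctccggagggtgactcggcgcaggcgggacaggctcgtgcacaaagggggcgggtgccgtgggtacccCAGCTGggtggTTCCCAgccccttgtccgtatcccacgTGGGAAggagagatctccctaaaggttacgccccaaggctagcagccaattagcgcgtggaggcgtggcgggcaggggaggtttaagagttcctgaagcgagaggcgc
Notch2, chr3:98013288-98013537, plus strand: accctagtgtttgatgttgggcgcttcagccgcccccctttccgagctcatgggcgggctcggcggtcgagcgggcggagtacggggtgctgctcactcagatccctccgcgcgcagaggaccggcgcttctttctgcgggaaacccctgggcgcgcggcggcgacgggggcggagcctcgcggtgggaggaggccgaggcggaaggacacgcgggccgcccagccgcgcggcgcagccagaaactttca
Notch3, chr17:32166891-32167140, minus strand: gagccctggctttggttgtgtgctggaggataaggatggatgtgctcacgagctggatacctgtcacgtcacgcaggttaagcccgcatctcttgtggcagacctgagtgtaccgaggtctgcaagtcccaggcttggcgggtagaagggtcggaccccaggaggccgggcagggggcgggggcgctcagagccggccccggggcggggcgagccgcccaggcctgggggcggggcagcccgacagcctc

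In windows from 250 bases before to 50 bases after a start, TGGGAA was found in 24.5% of 21263 windows of protein-coding genes, and at least 2 matches in 3.61%. Rbpj had 2 matches, 149 and 65 bases before the start, and Lfng had 2, at 135 and 108 bases. Maml2 had 1, before its inner start. The other 7 members had none, which says only that these letters are not in the windows. CAGCTG was found in 15.6% of windows and in those of Jag1, Dll1, Dll3 and Lfng. AGGTCA, the half-site of thyroid hormone receptors, was found in 14.7% of windows and in those of Dll1 and Maml2. The Notch2 window held 41 CpG dinucleotides, more than 95.5% of windows did, and the Notch3 window 25, against a median of 13.0. The lack of a called promoter site at Notch3 therefore went with a CpG count above the median, while Maml2 had a promoter site at a start with 2 CpGs.

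At the promoters 9 of the 10 members had a site in every library. Among 17492 protein-coding genes with a start in the promoter table, 57.4% did in progenitors, 57.9% at control day 1 and 55.6% in the Seh1cKO library. Dll1 had a site at each of its 2 annotated starts, which made 10 promoter sites in all. All 10 were called in all 3 libraries, while 93.6% of all promoter sites of control day 1 were called in progenitors and 91.3% in Seh1cKO cells. Numb and Rbpj had the highest levels of the 10 at day 1.

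**Figure D1:**
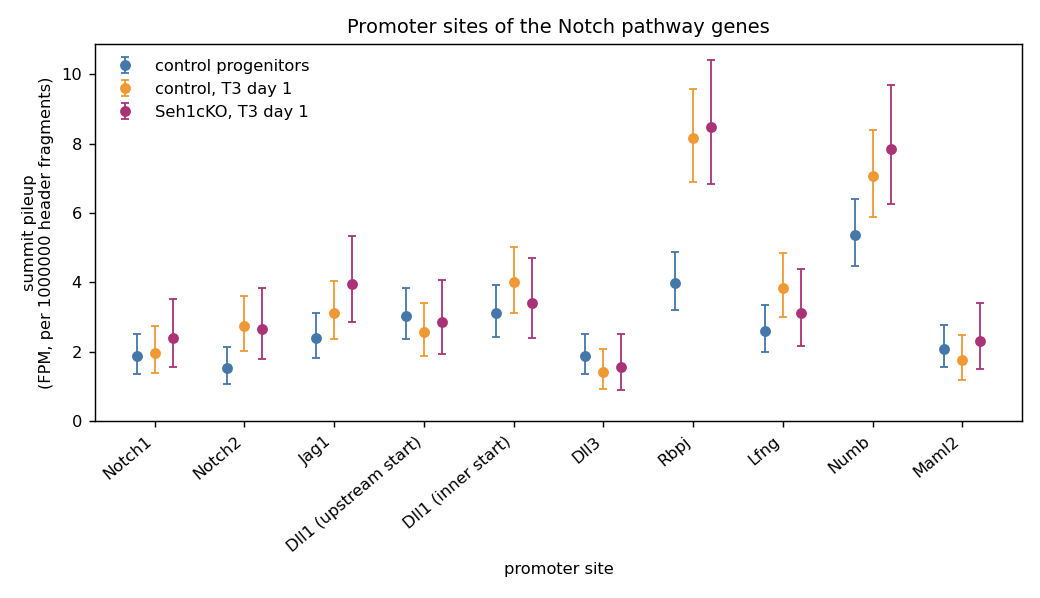
Level of the 10 promoter sites of the Notch pathway genes, as summit pileup in FPM (vertical axis), with exact 95% Poisson intervals as bars and 1 point per library. The Rbpj points stand at 3.97, 8.16 and 8.48, and Dll3 lies under 2 in all 3 libraries.

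The first comparison, control day 1 against progenitors, asks which Notch loci differed after the day with T3 and without PDGF-AA, bFGF and NT3. The parts of T3 and of the factors taken away cannot be told apart. The 10 genes held 120 sites in progenitors and 125 at day 1, and 60 sites were called in both. These 60 were 50.0% (40.7 to 59.3) of the progenitor sites, against 42.6% over all progenitor sites. At day 1 48.0% of member sites (39.0 to 57.1) were also called in progenitors, against 38.9% of all sites. Over the 60 shared sites the median log2 ratio was 0.15, with a range of -1.80 to 2.39, and over all 45187 shared sites it was 0.42. A site was called higher or lower when the ratio was at least 1.5 times and its counting interval did not hold 1. By this rule 6 of 60 were higher and 1 was lower, against 25.4% and 1.31% of all shared sites. Relative to the median of all sites 4 were higher and 9 lower, against 8.38% and 6.33%. The share of member sites that were higher at day 1, 10.0%, was thus below the background by the first count, and the share that were lower, 15.0%, was above it once the median shift of all sites was taken off. The summits of the 2 libraries lay over 200 bp apart at 8 of the 60 sites, 13.3%, against 9.91% over all sites.

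The sites that were higher at day 1 were the promoter and an inner site of Notch2, an inner site of Notch3, the promoter and an inner site of Rbpj and an inner site of Maml2. The site that was lower was another inner site of Maml2. With the median of all sites taken off, the Notch2 promoter and the inner Maml2 site were no longer higher. The 9 sites that were lower by that count were 4 of Maml2, 2 of Dll3 and 1 each of Notch1, Dll1 and Lfng, and those of the Dll1, Dll3 and Maml2 promoters were among them, with log2 ratios of -0.66, -0.82 and -0.68 relative to that median. Among control day 1 sites ranked by the −log10 q of their peaks, all 21 member sites of the 2 strongest deciles were called in progenitors, against 94.1% of all such sites. In deciles 6 to 8 it was 32 of 50, 64.0% against 51.3%, and in the 5 weakest deciles 7 of 54, 13.0% against 9.40%. Presence in the other library therefore followed peak strength at these genes as over all sites.

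The second comparison, Seh1cKO against control cells at day 1, asks what the loss of Seh1 went with at the same loci. The Seh1cKO library held 45 member sites, of which 40, or 88.9% (75.9 to 96.3), were also called in control cells, against 81.8% of all its sites. Of the 125 control day 1 sites 32.0% (23.9 to 40.9) were called in Seh1cKO cells, against 31.1% over all sites. The median log2 ratio over the 40 shared sites was -0.01, with a range of -1.89 to 0.87, and over all 36158 shared sites -0.14. By the rule above 1 site was higher and 3 were lower in Seh1cKO cells, against 2.67% and 13.1% of all shared sites. Relative to the median of all sites it was 3 and 3, against 4.90% and 9.96%. The 3 lower sites by the first count lay in Maml2, and the higher one lay in the flank of Dll3 at the start of the neighbouring gene Timm50.

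Of the 65 member sites of control day 1 without a call in progenitors, 4 were called in Seh1cKO cells, 6.15% (1.70 to 15.0) against 4.82% over all sites. Of the 60 that progenitors shared it was 36, 60.0% (46.5 to 72.4) against 72.5%. In the 2 strongest deciles of control day 1 19 of 21 member sites were called in Seh1cKO cells, 90.5% against 88.8%, in deciles 6 to 8 21 of 50, 42.0% against 36.3%, and in the 5 weakest 0 of 54 against 4.96%. The last share allows up to 6.60% by its interval. Both strong sites without a call were inner sites, 1 in Notch3 and 1 in Rbpj. The Seh1cKO library had the fewest fragments, and the part of depth in the missing weak sites was not tested.

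**Figure D2:**
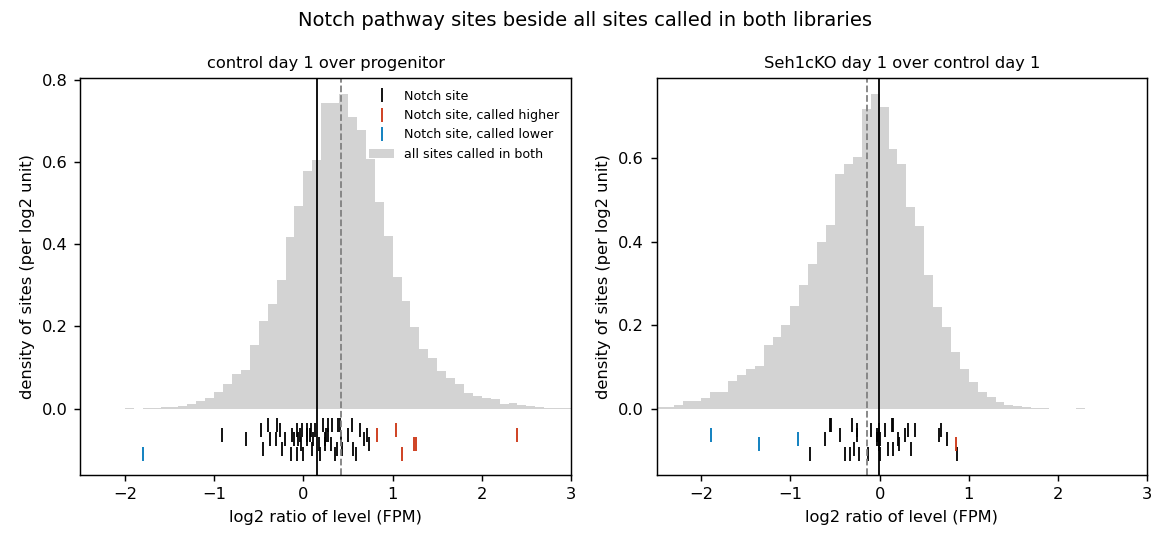
Distribution of log2 ratios of level over all sites called in both libraries of a comparison (grey), with 1 tick per Notch pathway site, set at several heights for legibility. The solid line is the median of the Notch sites and the dashed line that of all sites: 0.15 against 0.42 on the left, -0.01 against -0.14 on the right.

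Notch1 (chromosome 2, 26457902 to 26503822, minus strand), a main receptor of neural progenitors, held 13 sites in progenitors, 13 at control day 1 and 6 in Seh1cKO cells. Its promoter site had 1.88 (1.37 to 2.52), 1.97 (1.38 to 2.73) and 2.40 (1.57 to 3.51) FPM. The 3 intervals overlapped. The strongest site of the gene lay inside it at chr2:26487158-26488194, 16300 bp after the start, with 4.36, 6.35 and 4.33 FPM. The control day 1 value was the highest there, and neither ratio passed the rule. All 6 Seh1cKO sites were also called in both control libraries.

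Notch2 (chromosome 3, 98013538 to 98150367, plus strand) held 15, 13 and 6 sites. The promoter site had 1.54 (1.08 to 2.13) FPM in progenitors, 2.74 (2.03 to 3.61) at control day 1 and 2.67 (1.79 to 3.84) in the Seh1cKO library. Both day 1 values were thus near each other and above that of progenitors, but both their intervals overlapped the progenitor interval. The ratio was 1.78 (1.14 to 2.81) for control day 1 over progenitors and 0.977 (0.596 to 1.57) for Seh1cKO over control. Relative to the median of all sites the first ratio did not pass the rule. An inner site at chr3:98063149-98064065, 50085 bp after the start, had 1.32, 2.85 and 1.66 FPM, a ratio of 2.15 (1.35 to 3.47) and then of 0.583 (0.321 to 1.01). Here the Seh1cKO library lay nearer to progenitors, but the second interval held 1. The strongest site of the gene, chr3:98042915-98043628, had 5.73, 6.68 and 4.52 FPM and passed the rule in neither comparison.

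Notch3 (chromosome 17, 32120820 to 32166896, minus strand), a receptor best known in mural cells of vessels, held 6, 6 and 0 sites. No promoter site was called in any library, and the nearest called sites lay 736 and 1266 bp after the start with 0.438 to 0.470 FPM. The inner site at chr17:32127261-32127759, 39386 bp after the start, had 0.427 (0.205 to 0.786) FPM in progenitors and 2.25 (1.61 to 3.05) at control day 1, with no call in Seh1cKO cells. The ratio of the first pair was 5.25 (2.59 to 11.8), the highest of the 60 shared sites. At the control day 1 level the Seh1cKO library would hold 24.4 fragments there, where its lowest called pileup was 6 fragments. Of all control day 1 sites in the same strength decile 81.1% were called in Seh1cKO cells.

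Another Notch3 site, chr17:32143140-32143457, had 1.15 and 1.26 FPM in the control libraries and none called in Seh1cKO cells. A flank site at chr17:32118673-32118933, 48101 bp after the start, had 1.20 FPM at control day 1 and a −log10 q of 13.5, and was called there alone. Of 34 member sites of that library whose −log10 q reached 10 it was the 1 that stood alone, against 8.90% over all such sites. In progenitors 2 of 38 stood alone against 2.05%, at chr17:32162020-32162354 in Notch3 and at chr9:13613386-13613567 in Maml2, and in Seh1cKO cells 0 of 19 against 0.264%. Of 1303 protein-coding loci with 6 control day 1 sites 1.92% had none in Seh1cKO cells. This feature of Notch3 was singled out after its values were seen. Of the mural marker list 3, 4 and 4 of 7 genes had a site near a gene end in the 3 libraries, and the part of such cells in the Notch3 values was not tested.

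**Figure D3:**
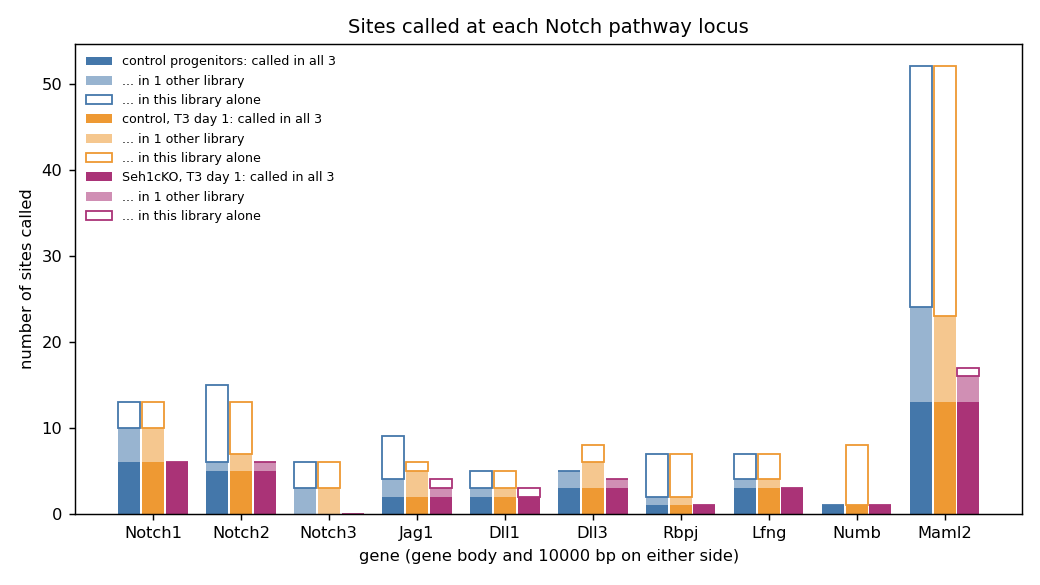
Number of sites called at each locus (gene body and 10000 bp on either side) in each library, split by whether the site was called in all 3 libraries, in 1 other library or in that library alone. Notch3 has 6, 6 and 0 sites, Numb 1, 8 and 1, and Maml2 52, 52 and 17.

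Jag1 (chromosome 2, 137081451 to 137116520, minus strand), a ligand that axons present to oligodendrocyte progenitors, held 9, 6 and 4 sites. The promoter site had 2.39 (1.81 to 3.11), 3.12 (2.36 to 4.04) and 3.96 (2.87 to 5.34) FPM. Its summit lay 914, 310 and 437 bp before the start. The Seh1cKO value was the highest, with a ratio of 1.27 (0.835 to 1.92) to control day 1, and no ratio passed the rule. The strongest site of the gene, chr2:137113936-137115035, had 3.93, 3.94 and 3.13 FPM. At Jag1 the levels of both sites were thus within 1.5 times of each other in each comparison.

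Dll1 (chromosome 17, 15367354 to 15376932, minus strand), a canonical Delta ligand, held 5, 5 and 3 sites. At its upstream start the level was 3.03 (2.37 to 3.83), 2.57 (1.89 to 3.42) and 2.86 (1.94 to 4.06) FPM. At its inner start it was 3.12 (2.44 to 3.92), 4.00 (3.13 to 5.03) and 3.41 (2.40 to 4.70). The intervals overlapped at both starts. The summit of the upstream site lay 106 bp before the start in progenitors and 488 and 464 bp after it in the day 1 libraries, so these 3 levels were not read at the same point. Before the upstream start a narrow site of 199 bp, chr17:15378019-15378217, was called at control day 1 alone with 2.35 FPM and a −log10 q of 9.70. Further before it, chr17:15378881-15378992 was called in Seh1cKO cells alone, with 1.94 FPM and a −log10 q of 3.74.

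Dll3 (chromosome 7, 28293555 to 28301785, minus strand), a Delta protein that does not activate Notch on neighbouring cells, held 5, 8 and 4 sites, but 6 of its 8 sites lay in the flanks and all 6 of those lay on the neighbouring genes Timm50 or Selenov. Its promoter site had 1.88 (1.37 to 2.52), 1.42 (0.930 to 2.09) and 1.57 (0.913 to 2.51) FPM, the lowest of the 10 promoter sites in each day 1 library. The site of the locus that was higher in Seh1cKO cells, chr7:28311775-28312373, covered the start of Timm50, a mitochondrial import protein. It had 2.18, 2.14 and 3.87 FPM, and a ratio of 1.81 (1.14 to 2.88) for Seh1cKO over control day 1. By fold enrichment over the local background the log2 ratio there was 0.32, under the 1.5 times of the rule.

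Rbpj (chromosome 5, 53555779 to 53657445, plus strand), which encodes the DNA-binding partner of all Notch receptors, held 7, 7 and 1 sites. The single Seh1cKO site was the promoter site, chr5:53589018-53590719. Its level was 3.97 (3.21 to 4.87) FPM in progenitors, 8.16 (6.90 to 9.58) at control day 1 and 8.48 (6.84 to 10.4) in the Seh1cKO library. Both day 1 libraries lay above progenitors without overlap of the intervals, with a ratio of 2.05 (1.57 to 2.69) for control day 1 over progenitors. Seh1cKO over control was 1.04 (0.793 to 1.36). Relative to the median of all sites the first log2 ratio was 0.62 and still passed the rule. It was 0.55 when scaled to the median of sites called in all 3 libraries and 0.42 by fold enrichment, both under the rule.

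The shape of this site differed between the stages. In progenitors it was 1 peak of 1687 bp with its summit 1003 bp before the most upstream start of the promoter table. Each day 1 library had 2 peaks in its place, with the higher summit 92 bp after the start in control cells and 86 bp after it in Seh1cKO cells. The second summit lay 1056 bp before the start in control cells and 1057 bp in Seh1cKO cells. Set against the progenitor summit beside it, the upstream peak had 3.97 FPM in progenitors, 5.64 in control cells and 4.98 in Seh1cKO cells. Control day 1 over progenitors was 1.42 (1.06 to 1.90) there, under the rule, and Seh1cKO over control 0.883 (0.623 to 1.24). As a summit is the highest point of its peak, progenitors had at most 3.97 FPM at the start itself, where the printed sequence lies. Summits over 1000 bp apart between these libraries occurred at 0.0420% of all shared sites. This feature of the site was singled out after its values were seen.

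The inner Rbpj site at chr5:53605305-53605839, 15276 bp after the start, had 0.940 (0.589 to 1.42) FPM in progenitors and 2.25 (1.61 to 3.05) at control day 1, a ratio of 2.39 (1.39 to 4.21). It was not called in Seh1cKO cells, where the control level would give 24.4 fragments, and it belonged to the decile of which 81.1% was called there. The strong promoter site was thus called in all 3 libraries while the inner site was called only in the control ones. Of 834 protein-coding loci with 7 control day 1 sites 13.5% had at most 1 in Seh1cKO cells. The annotated gene begins at 53555779, well before the starts that the promoter table holds, and no site was called within 1000 bp of that end or of the other in any library.

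**Figure D4:**
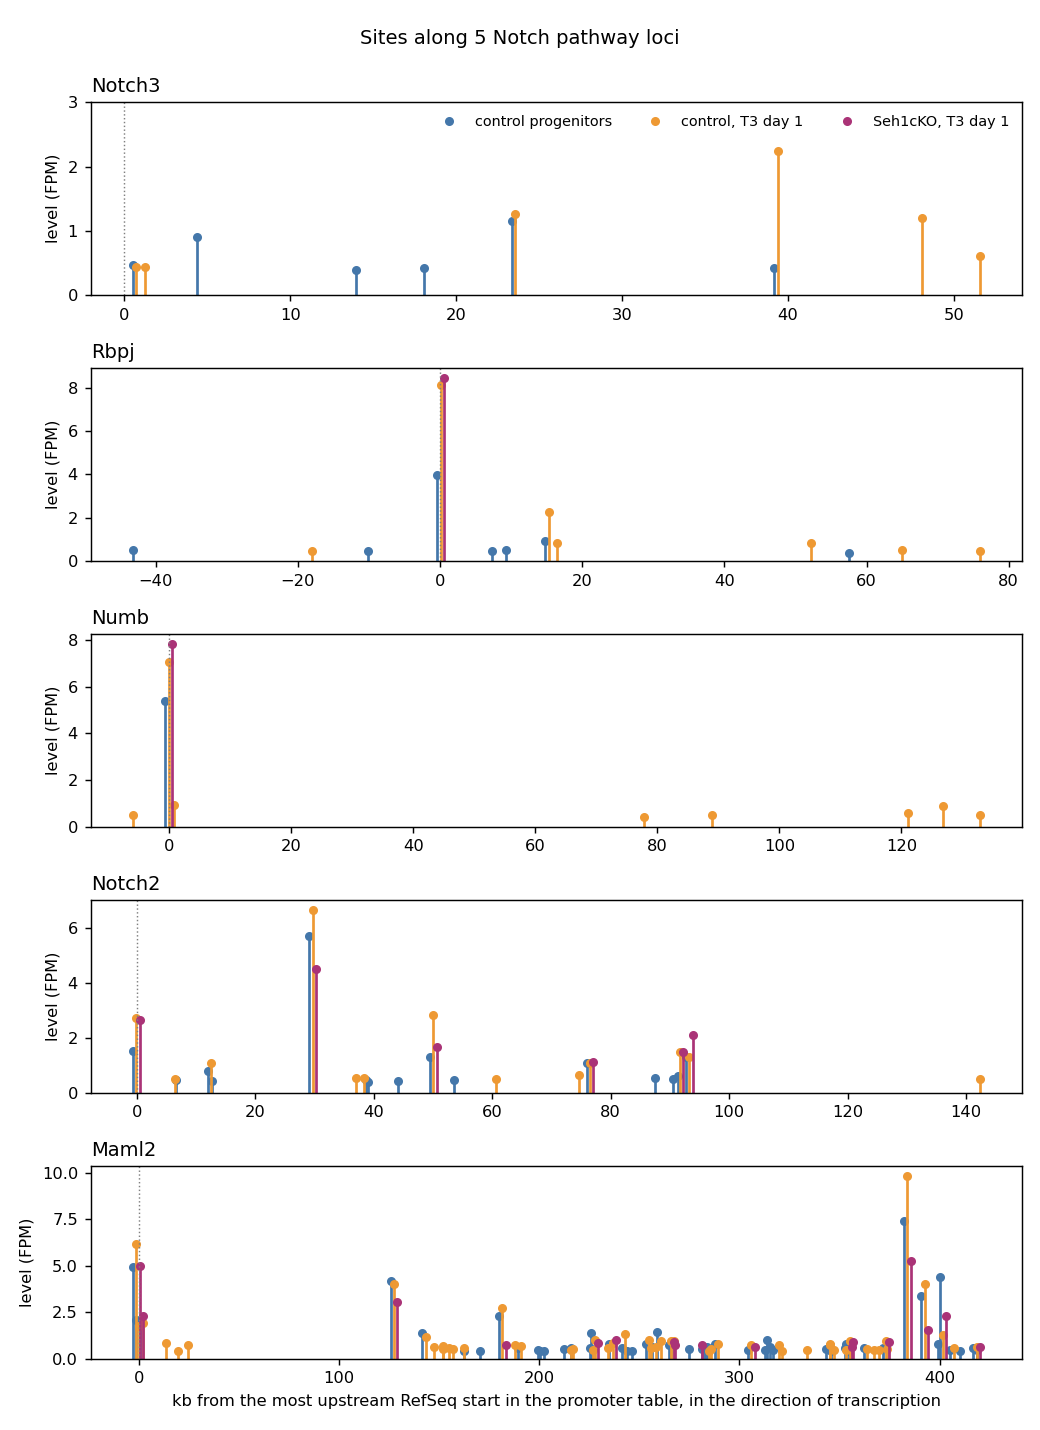
Sites along 5 loci, with level in FPM on the vertical axis. The horizontal axis is the distance in kb from the most upstream start in the promoter table, in the direction of transcription. All libraries of a site are drawn at the median of their summits, shifted slightly so that they can be seen side by side. The Rbpj promoter point of progenitors is thus drawn near the start, though its summit lay 1003 bp before it. Each point is 1 site called in 1 library; Notch3 has no Seh1cKO point, and Rbpj and Numb have 1 each, at the promoter.

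Maml2 (chromosome 9, 13296561 to 13709533, plus strand), a Mastermind coactivator of the Notch complex, held 52, 52 and 17 sites, 83 of the 188 in all. The gene is 413 kb long, and it held 12, 12 and 3.93 sites per 100 kb, against 19.7, 19.7 and 9.10 at Notch1. This density was also higher in every library at Dll1, Dll3 and Lfng. It was lower in every library at Notch2, Notch3, Rbpj and Numb, and mixed at Jag1. The promoter site had 2.09, 1.75 and 2.31 FPM and passed the rule in neither comparison. The site at the annotated gene start, chr9:13296304-13297003, had 4.96, 6.19 and 4.98 FPM, also within 1.5 times. The strongest site, chr9:13681268-13682067, lay 383827 bp after the first start and 19325 bp after the inner one. It had 7.39 (6.33 to 8.58) FPM in progenitors, 9.86 (8.47 to 11.4) at control day 1 and 5.26 (3.98 to 6.81) in Seh1cKO cells, a ratio of 0.533 (0.389 to 0.722) for Seh1cKO over control. The Seh1cKO interval lay below that of control day 1. The log2 ratio of -0.91 was -0.58 when scaled to the median of sites called in all 3 libraries and -0.51 by fold enrichment, both short of the rule.

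The next site, chr9:13690210-13690896, had 3.38, 4.00 and 1.57 FPM, and Seh1cKO over control was 0.392 (0.217 to 0.672). A site far upstream of it, chr9:13479253-13479687, had 2.31, 2.74 and 0.738, a ratio of 0.269 (0.110 to 0.573) and the lowest of the 40 shared sites. At these 3 sites the control libraries were within 1.5 times of each other and Seh1cKO cells were lower. The site beyond them, chr9:13699226-13700172, had another order: 4.40 (3.59 to 5.34) FPM in progenitors, 1.26 (0.798 to 1.89) at control day 1 and 2.31 (1.49 to 3.40) in Seh1cKO cells. Control day 1 over progenitors was 0.286 (0.174 to 0.453), the lowest of the 60 shared sites, with the summits 314 bp apart, and Seh1cKO over control was 1.83 (0.997 to 3.37), higher by the rule relative to the median of all sites alone. All 4 sites were called in all 3 libraries. The inner site that was higher at control day 1, chr9:13540769-13541081, had 0.555 and 1.31 FPM, a ratio of 2.37 (1.16 to 5.06), and no call in Seh1cKO cells. Its log2 ratio relative to the median of all sites was 0.82 and no longer passed the rule, since the interval held 1. Without Maml2, 0 of the remaining 26 shared sites was lower in Seh1cKO cells by the rule.

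Lfng (chromosome 5, 140607341 to 140615545, plus strand) held 7, 7 and 3 sites. The promoter site, which covered the printed sequence, had 2.61 (1.99 to 3.35), 3.83 (2.99 to 4.84) and 3.13 (2.17 to 4.38) FPM. The control day 1 value was the highest, the intervals overlapped, and no ratio passed the rule. The other sites called in all 3 libraries were chr5:140610899-140611573 inside the gene, with 2.14, 2.08 and 3.32 FPM and higher in Seh1cKO cells relative to the median of all sites alone, and chr5:140619322-140620503 after it, with 1.62, 1.26 and 2.12.

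Numb (chromosome 12, 83794034 to 83921942, minus strand) held 1, 8 and 1 sites. The promoter site was the one called in all 3 libraries, with 5.38 (4.48 to 6.41), 7.06 (5.90 to 8.39) and 7.84 (6.26 to 9.69) FPM. The order of the values was progenitors, control day 1, Seh1cKO, and the ratios of 1.31 (1.02 to 1.69) and 1.11 (0.834 to 1.47) did not pass the rule. The other 7 sites were called at control day 1 alone. They were weak, with 0.438 to 0.931 FPM and a −log10 q of 1.60 to 7.72, and they lay from the upstream flank to 132895 bp after the first start. Of 534 protein-coding loci with 8 control day 1 sites 0.562% had at most 1 in progenitors and 9.36% at most 1 in Seh1cKO cells. This feature was singled out after its values were seen, and it rests on weak peaks: the control day 1 count was 1 once only peaks with a −log10 q from 10 up were kept, and 2 with those from 5 up or with lists of equal length.

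The other pathway genes, 51 in all and not members of the list above, gave a wider view. Among the 40 genes whose starts the promoter table holds, 33 had a promoter site in progenitors, 35 at control day 1 and 32 in Seh1cKO cells. At their strongest sites 17 of 49 were higher at control day 1 than in progenitors and 0 lower, with a median log2 ratio of 0.46, and 1 was higher and 6 lower in Seh1cKO than in control cells, with a median of -0.07. By role, 4 of 9 strongest sites of the genes for receptor processing (Adam10 and others) and 4 of 9 of the trafficking and ubiquitin ligase genes were higher at day 1, and 1 of 6 of the coactivators was. It was 1 of 7 for the receptor and ligands, 1 of 4 for the glycosylation genes, 3 of 8 for the corepressors with the paralogue Rbpjl and 3 of 6 for the targets. The 6 sites that were lower in Seh1cKO cells were 2 of the ligands and 1 each of the glycosylation genes, the coactivators, the corepressors with Rbpjl and the targets. These counts stand beside 25.4% of all shared sites for higher at day 1 and 13.1% for lower in Seh1cKO cells. Those shares, like the ones below, are over sites of any strength, while each of the 49 was the strongest of its gene. Shares at sites of like strength are not given here, so the comparison is not like for like. With the median log2 ratio of all sites taken off, 5 of the 49 were higher at day 1 and 3 lower, against 8.38% and 6.33%, and 1 was higher and 3 lower in Seh1cKO cells, against 4.90% and 9.96%.

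Where the strongest sites lay bears on these counts. Of the 17 that were higher at day 1, 4 covered the promoter of another protein-coding gene: that of Poglut1, the 1 called among the glycosylation genes, at Timmdc1, that of another processing gene at Lin37, that of Ncstn at Copa as well as at its own start, and that of Itch at Dynlrb1. Of the 49 strongest sites 24 lay at a promoter of the table, the gene's own or another's, and 10 of these were higher at day 1, against 32.4% of all promoter sites. Of the other 25 it was 7, against 23.6% of all sites off promoters. In Seh1cKO cells 1 of the 24 and 5 of the 25 were lower, against 3.89% and 16.2%. Each of these 4 counts lay within 3 sites of the number that the share of sites of the same kind would give.

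The largest ratio for control day 1 over progenitors was at Heyl, a Notch target of the Hey family, with 1.03, 3.78 and 1.20 FPM and a ratio of 3.68 (2.29 to 6.13). This site, chr4:123249081-123249623, lay inside the gene near its annotated end at 123249870, and the promoter table holds no start of Heyl. At the same site Seh1cKO over control was 0.317 (0.161 to 0.579), so the Seh1cKO value lay near that of progenitors. Both ratios share the control day 1 value, and the site was picked as the largest first ratio of 49. Spen, a corepressor that binds RBPJ, followed with 2.34 (1.70 to 3.24) and Dtx4, a ubiquitin ligase of the Deltex family, with 2.26 (1.59 to 3.25). The Spen site lay at the start of another transcript in its flank. Kat2b, a histone acetyltransferase, and Hes1 had the lowest ratios, 0.813 and 0.830, neither past the rule. Their log2 ratios relative to the median of all sites were -0.72 and -0.69, and both were lower by the rule. For Seh1cKO over control the lowest were the RBPJ paralogue Rbpjl with 0.259 (0.106 to 0.549), Heyl, and the atypical ligand Dner with 0.426 (0.254 to 0.686). The Rbpjl site lay at its own promoter but also touched the gene Matn4, and its Seh1cKO level was low, 0.738 (0.318 to 1.45) FPM. The highest was Dtx1 with 1.87 (1.07 to 3.27), followed by Dlk1 and Dll4 with 1.68 and 1.49, neither past the rule.

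The targets Hes1 and Hes5 had strongest sites of 3.76, 3.12 and 3.60 FPM and of 4.91, 4.49 and 4.70, the latter at the start of the neighbouring gene Pank4. Neither target passed the rule in either comparison. With the median of all sites taken off, Hes1 was lower at control day 1 than in progenitors, while Hes5 still passed in neither comparison. Hey1 and Hey2 were higher at control day 1 than in progenitors, with ratios of 1.90 (1.44 to 2.52) and 1.54 (1.16 to 2.03), and stood at 0.842 (0.617 to 1.14) and 0.952 (0.691 to 1.30) in Seh1cKO over control. Against the median of all sites the log2 ratios of Hey1 and Hey2 for control day 1 over progenitors were 0.50 and 0.20, and neither passed the rule, while that of Heyl was 1.46 and did. Of these targets Heyl alone passed the rule in both comparisons. Whether any of the sites above bears on transcription was not measured in the libraries used here.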

How the data were processed

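ATAC-seq peak tables of 3 libraries were used, 1 per group, as deposited. Alignment tools and build named in the submitters' processing notes are Bowtie2, SAMtools, MACS2 and mm10. MACS 2.1.2_dev was run on the paired-end fragments of 1 library at a time, keeping duplicates, with no control and a q cutoff of 0.05, per the file headers, whose input name points to mitochondrial reads being removed. No source used here states a shift of reads for the transposase. The deposited pileup signal is the fragment coverage at the summit, and the deposited fold enrichment is its ratio to the caller's local background. The −log10 p and q columns, whose names were damaged in the deposited tables, were identified by column order and by recomputing p, which came within 0.01 for at least 99.91% of peaks.

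Peaks were linked into sites by an overlap of at least 1 bp with Python 3.11.15, pandas 2.3.3, numpy 2.4.6 and scipy 1.17.1. Gene positions and starts came from RefSeq on GRCm38.p6. Levels are pileup per 1000000 header fragments (FPM) with exact Poisson intervals, shares have exact Clopper-Pearson intervals, and ratios an exact binomial interval on the split of both pileups, all at 95%. As fragments have no molecular identifiers, these cover counting error only. The depth of each library is given with the results. Linking and ratios were tested on simulated data. The 10 genes, the other lists and the rules were chosen with earlier results of these data known. Text names, for each member, the site with the highest mean level, sites at a gene end or promoter, sites past the ratio rule and sites called in 1 library alone at a −log10 q from 10 up, and for the other pathway genes the 3 with the largest ratio in each direction, of which 1 is not reported here; further sites named were chosen after their values were seen. Alternatives were peak thresholds, list length, flank, overlap, scaling, measure and, added later, linking within 200 bp, leaving out Maml2 and summits within 200 bp.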

Additional observations from a re-analysis of the deposited data

How the results depend on the processing

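The counts and shares depended on the peak threshold, and the direction of both medians on the scaling. With peaks of each list from a −log10 q of 5 up the 10 genes held 52 sites in progenitors and 65 at control day 1, of which 70.8% were called in progenitors and 46.2% in Seh1cKO cells. From 10 up there were 38, 34 and 19 sites, and the shares were 79.4% and 47.1%. With lists of equal length there were 53 and 52 sites in the control libraries, and the shares were 80.8% and 63.5%. The same shares over all sites under these settings are not given here, so these shares cannot be set against a background. Over all control day 1 sites, the share called in progenitors rose from 2.46% in the weakest decile to 98.5% in the strongest. For Seh1cKO cells it rose from 0.895% to 96.4%. With 50000 bp on either side the Seh1cKO count was 74. Scaled to the median of sites called in all 3 libraries the median log2 ratio was -0.33 for control day 1 over progenitors and 0.32 for Seh1cKO over control, by construction a shift of all sites. The Seh1cKO median of -0.01 lay so near 0 that it was 0.01 with a −log10 q from 5 up and 0.04 without Maml2. From 10 up it was -0.16 over 16 shared sites, against -0.06 over all sites, so the members then lay below the background. By fold enrichment the medians of the 2 comparisons were 0.02 and -0.19, against 0.16 and -0.24 over all sites. Without Maml2 there were 68, 73 and 28 sites. With peaks within 200 bp linked, chosen after seeing the data, 58.6% of control day 1 sites of the members were called in progenitors. The share over all sites is not given for that setting either. With summits within 200 bp of each other, also chosen after seeing the data, the medians were 0.18 and -0.01. The Notch2 promoter ratio, 0.83 on the log2 scale, was 0.35 when so scaled and 0.44 by fold enrichment, under the rule. Notch3 had 0 Seh1cKO sites under each setting but the flank of 50000 bp, which gave 2. In all 232 values kept their side or range, 98 moved, 7 were weaker and 4 reversed, and beyond the scaling the causes were not tested. No paired analysis was possible because each group has 1 library. A site under the lowest pileup called, 9, 8 and 6 fragments in the 3 libraries, could not be seen. A site above it could also go uncalled where the local background was high.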
